A study of Mus musculus with 47 samples.

Results

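Astrocytes, the star-shaped glia of the brain, clear glutamate from the synapse, buffer potassium and water, feed neurons and form a coupled network through gap junctions. They enlarge and raise their intermediate filaments when the tissue is injured or diseased, a state called reactive astrogliosis. Astrocytes also differ between brain regions. In the forebrain the glutamate transporter GLT-1, made from Slc1a2, dominates, whereas the Bergmann glia of the cerebellum carry mainly GLAST, made from Slc1a3. This report describes 10 genes that are widely used to mark astrocytes: the filament genes Gfap and Vim, the calcium-binding protein gene S100b, the lineage transcription factor gene Sox9, the folate enzyme gene Aldh1l1, the water channel gene Aqp4, the gap junction gene Gja1, the transporter genes Slc1a2 and Slc1a3, and the glutamine synthetase gene Glul. The genes were found by symbol and Ensembl identifier in both deposited count tables, where they are 10 of 55416 genes, and all 10 passed the filter on low counts in both sexes.

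In the GENCODE annotation of GRCm38, Slc1a2 (ENSMUSG00000005089) spans chr2:102658659-102790784 on the plus strand, Slc1a3 (ENSMUSG00000005360) chr15:8634124-8710764 on the minus strand, S100b (ENSMUSG00000033208) chr10:76253853-76261159 on the plus strand, and Gfap (ENSMUSG00000020932) chr11:102887336-102900912 on the minus strand. Counts were summed over whole genes. Whether counting used strand is not given in the sources used here, so reads of S100b and of Dip2a, which lies on the opposite strand over it, could not be told apart if it did not. The same holds for Slc1a2 and Gm13872, Gfap and Gm26668, Glul and Teddm2, and antisense transcripts over Aqp4 and Aldh1l1. Slc1a3, Aldh1l1 and Glul also overlap a gene on their own strand, and Gja1, Sox9 and Vim overlap no other gene.

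RNA came from the brains of 3xTg mice, a homozygous model of Alzheimer's disease that carries the human transgenes APPSwe and tauP301L and a knocked-in PS1M146V allele, so every group shared these alleles and no wild-type library was analysed here. Mice of 6 months of age were given an amino acid defined Control diet or a diet low in isoleucine (IleR), leucine (LeuR) or valine (ValR) for 9 months. Brains were collected at 15 months of age. In males there were 4 libraries from Control, 4 from ValR and 3 each from IleR and LeuR. In females 5 libraries came from IleR and 6 from each other diet. A library is called by its diet and the number in its label, such as LeuR 21. The study counts its RNA-seq groups in mice, and each library was taken as 1 mouse, although the labels do not state this library by library. The male group size it gives is larger than the IleR and LeuR groups analysed here. Its methods say that outliers in a principal component analysis of the raw data were removed. Of the 24 male libraries in the labels, 10 are not analysed here, and whether these are the removed ones is not given in the sources used here. Removal by expression would narrow the spread behind the male p-values, and its size was not tested.

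The sequencing depth was 12682687 to 25722333 counts per male library and 10672599 to 21370973 per female library, and each member had at least 329 counts in every library, so counting error was small for all 10 genes. The sample labels name the tissue as brain and the methods name the left hemisphere. The summed level of 6 neuron markers was 3264 to 5790 CPM, counts scaled to library size, over all libraries. The libraries differed in regional content. This was measured by a hindbrain score, the mean log2 CPM of 10 cerebellum genes and of 10 brainstem and spinal cord genes, averaged, minus the mean log2 CPM of 10 forebrain genes. In males the score was -8.25 to -4.81 in Control and -3.99 to 4.89 in the restricted diets, with no overlap. The difference of 9.37 had an exact permutation p of 0.0020 (two-sided, 10 restricted against 4 Control libraries), the smallest this design can give. The summed cerebellum genes were 35.4 to 103 CPM in male Control and 239 to 4708 CPM in the restricted diets. The summed forebrain genes were 714 to 2281 CPM in Control and 148 to 502 CPM in the restricted diets. The summed brainstem and spinal cord genes were 0.559 to 9.36 CPM in male Control and 2.65 to 633 CPM in the restricted diets. In females 3 of these 10 genes passed the filter. This part of the score thus lay near the floor in male Control, where log2 CPM depends on the prior count of 2. The score was not computed with another prior count. In females the score ran from -8.16 to 4.07 and its difference between restricted diets and Control was 0.55 (exact permutation p = 0.770, 17 against 6 libraries). In males, diet and regional content therefore cannot be told apart, and in bulk tissue fewer astrocytes and less RNA per astrocyte cannot be told apart either.

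The upstream sequences of 3 members that the results turn on are shown here: S100b and Slc1a2, which moved in opposite directions in males, and Slc1a3, the partner of Slc1a2 in glutamate uptake. Each is the 250 bases before a start given in the RefSeq promoter table (build GRCm38.p6), written 5′ to 3′ along the gene. RefSeq gave such a window for 8 of the 10 members. The windows are chr10:76253586-76253835 on the plus strand for S100b, chr2:102706188-102706437 on the plus strand for Slc1a2, and chr15:8710808-8711057 on the minus strand for Slc1a3. In the GENCODE annotation the windows of S100b and Slc1a3 lie outside the annotated gene. That of Slc1a2 lies within the gene span, with 29 of its bases in an exon. It is far downstream of the annotated gene start at chr2:102658659, so it precedes an internal start and not the start of the gene. Capitals mark matches, on either strand, to 5 motifs. The motif searched for STAT factors, which act in reactive astrocytes, was TTCNNNGAA. For the nuclear factor I family, which helps to specify astrocytes, the letters searched were TTGGCA. The motif of the SOX family, to which Sox9 belongs, was written as ACAANG. The core promoter element called the TATA box was searched as TATAAA, and the box bound by the SP1 and KLF factors as GGGCGG.

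S100b: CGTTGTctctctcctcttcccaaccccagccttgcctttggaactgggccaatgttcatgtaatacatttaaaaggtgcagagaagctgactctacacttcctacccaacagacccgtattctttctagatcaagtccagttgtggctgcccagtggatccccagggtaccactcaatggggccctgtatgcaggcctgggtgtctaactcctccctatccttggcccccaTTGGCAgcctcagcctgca

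Slc1a2: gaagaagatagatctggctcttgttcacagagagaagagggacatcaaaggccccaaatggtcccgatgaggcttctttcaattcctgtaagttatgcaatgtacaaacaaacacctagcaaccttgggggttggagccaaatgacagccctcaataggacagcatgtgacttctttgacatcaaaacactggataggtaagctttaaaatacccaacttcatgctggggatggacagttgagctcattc

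Slc1a3: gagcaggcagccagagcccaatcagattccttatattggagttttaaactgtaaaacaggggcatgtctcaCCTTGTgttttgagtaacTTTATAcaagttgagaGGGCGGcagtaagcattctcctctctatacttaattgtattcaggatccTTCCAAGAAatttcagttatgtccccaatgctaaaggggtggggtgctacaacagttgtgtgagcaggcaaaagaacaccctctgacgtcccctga

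The S100b window held a nuclear factor I match 19 bases before the start and a SOX match at its far end. The Slc1a3 window held a STAT match 96 bases before the start, and also SOX, TATA and SP1/KLF matches. The letters of these 5 motifs were not in the Slc1a2 window, which lies inside its gene and so is unlike the other windows in position. Of all 32851 promoter windows of this length, 7.02% held the STAT motif, 12.3% the nuclear factor I motif, 36.3% the SOX motif, 12.4% the TATA motif and 32.7% the SP1/KLF motif. A match describes the letters and does not show that a factor binds there.

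Per kilobase of exon, the 10 members spanned a wide range of levels in male Control. Glul had the highest level, at 456 ± 22.6 CPM per kb (SD, n = 4). Slc1a2 (201 ± 65.6), Gfap (118 ± 43.3), S100b (80.7 ± 16.2) and Slc1a3 (63.8 ± 7.61) followed, and neighbours in this order overlapped between libraries. Aqp4 (26.0 ± 7.42), Gja1 (22.0 ± 4.91), Vim (19.1 ± 8.72) and Aldh1l1 (15.1 ± 1.39) followed without overlap with Slc1a3, and neighbours among them overlapped. Sox9 had the lowest mean, 7.29 ± 1.42 CPM per kb, and did not overlap with Aldh1l1, its neighbour in the order, but did with Vim, whose libraries ran from 8.59 to 27.6 CPM per kb. Female Control (n = 6) had the same order except that Gfap, at 48.6 ± 20.5 CPM per kb, stood below S100b (81.1 ± 40.6) and Slc1a3 (67.9 ± 24.2). Glul was again highest, at 424 ± 49.1 CPM per kb, and Sox9 lowest, at 7.07 ± 0.767. The sexes were deposited in separate tables and the difference between them was not tested.

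**Figure D1:**
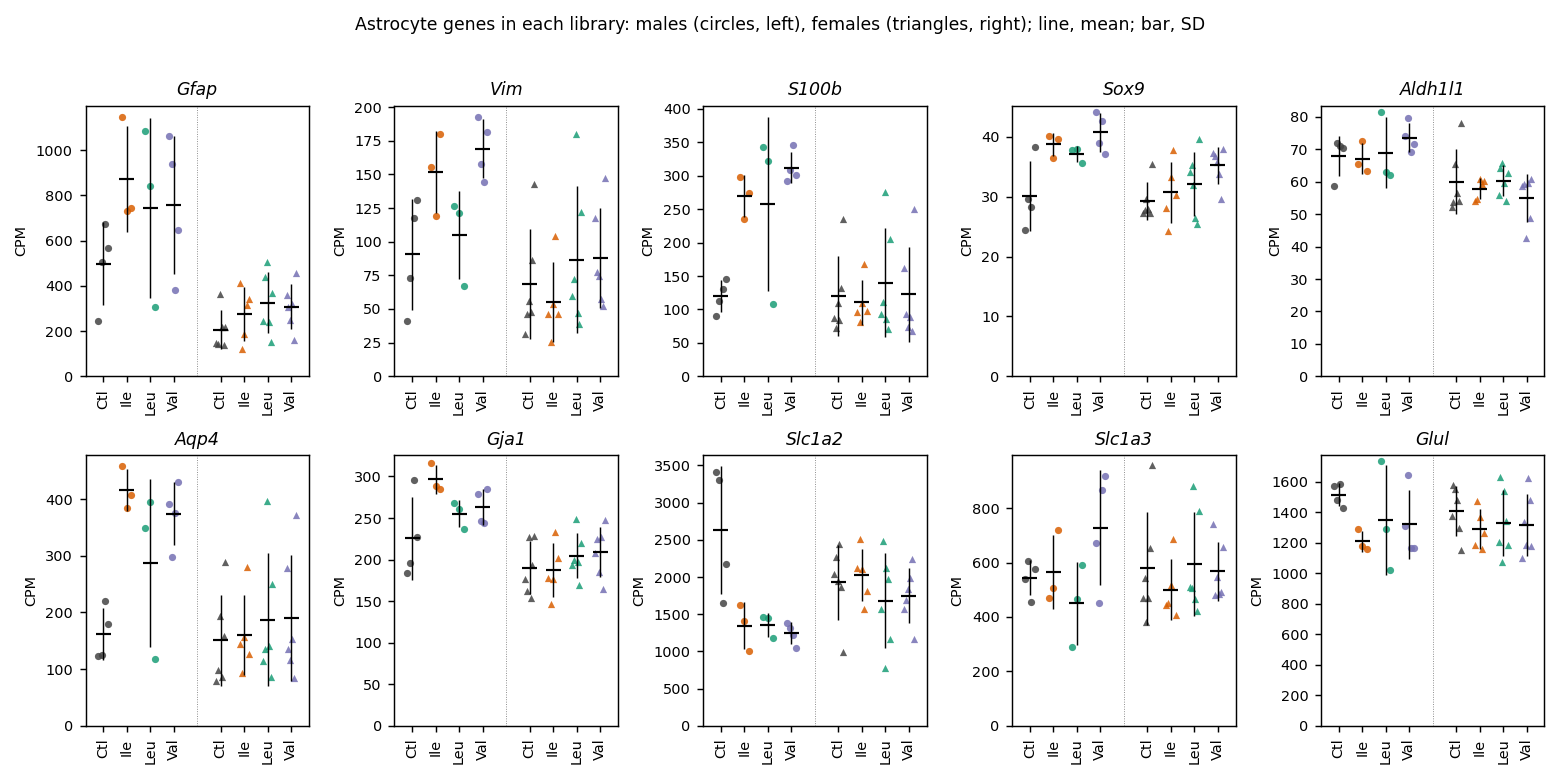
CPM of each astrocyte gene (y axis, from 0) in each library by diet (x axis: Control, IleR, LeuR, ValR), males as circles and females as triangles, with the mean as a line and the SD as a bar. Male Slc1a2 lies at 1648 CPM or more in Control and at 1624 CPM or less in the restricted diets, and in females the diets overlap for every gene.

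In males, the glutamate transporter gene Slc1a2 was lower and S100b higher in each restricted diet than in Control, Aqp4 was higher in IleR and ValR, and Vim and Sox9 were higher in ValR. Of the 10 genes, 3 passed the test in IleR (2 higher, 1 lower), 2 in LeuR (1 higher, 1 lower) and 5 in ValR (4 higher, 1 lower), by the quasi-likelihood test of edgeR, Benjamini-Hochberg adjusted over all 22197 genes tested. Of all genes tested, 15.3% passed in IleR (6.63% higher, 8.68% lower), 10.1% in LeuR (3.81% higher, 6.33% lower) and 23.5% in ValR (11.1% higher, 12.4% lower). The median log2 fold change of the 10 genes was 0.38 in IleR, 0.20 in LeuR and 0.43 in ValR, beside 0.04, 0.05 and 0.03 over all genes. These genes differ in function: Slc1a2 removes glutamate, Aqp4 moves water at the end-feet on vessels, S100b binds calcium and is also made by some oligodendrocytes, Vim builds filaments and is also made by vessel and meningeal cells, and Sox9 regulates transcription.

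Slc1a2 encodes GLT-1, which takes up most synaptic glutamate in the forebrain. Its level in male Control was 3412, 3300.5, 1648 and 2180 CPM in libraries 1, 3, 4 and 5. It was 1624, 1407 and 1003 CPM in IleR 13, 14 and 17, and 1461, 1445 and 1176 CPM in LeuR 19, 20 and 21. In ValR 7, 9, 10 and 12 it was 1388, 1321, 1216 and 1052 CPM. Every restricted library was below every Control library, with Control 4 and IleR 13 the nearest to each other. The log2 fold change was -0.97 ± 0.24 (SE) in IleR (adjusted p = 0.0166), -0.95 ± 0.24 in LeuR (0.0269) and -1.08 ± 0.22 in ValR (0.00336). With 1 library left out, the adjusted p rose to as much as 0.0825 in IleR and 0.0826 in LeuR, while the log2 fold change ran from -1.14 to -0.81 in IleR and from -1.12 to -0.80 in LeuR. The call was lost without Control 1, Control 3, IleR 14 or IleR 17 in IleR, and without Control 1, Control 3 or any 1 LeuR library in LeuR. With only Control and the diet in the fit, it was lost in IleR (adjusted p = 0.0533) and LeuR (0.114).

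S100b marks mature astrocytes and encodes a calcium-binding protein that the cells also secrete. In male Control it was at 90.1, 113, 131 and 146 CPM in libraries 1, 3, 4 and 5. In IleR 13, 14 and 17 it was at 298, 236 and 274 CPM, and in ValR 7, 9, 10 and 12 at 292, 308, 345 and 301 CPM. In LeuR 19 and 20 it was at 344 and 322 CPM, but LeuR 21, at 108 CPM, lay among the Control libraries. The log2 fold change was 1.17 ± 0.29 in IleR (adjusted p = 0.0157), 1.11 ± 0.29 in LeuR (0.0298) and 1.38 ± 0.27 in ValR (0.00275). All IleR and ValR libraries were above all Control libraries. LeuR 21 also had the lowest hindbrain score of the restricted males, -3.99. The S100b call was lost without Control 1, IleR 13 or IleR 17 in IleR (adjusted p up to 0.0574), and without Control 1, Control 3, LeuR 19 or LeuR 20 in LeuR (up to 0.149). In LeuR it was also lost with limma voom (adjusted p = 0.0654) and with only Control and LeuR in the fit (0.145).

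Aqp4, the water channel of astrocyte end-feet, was at 123, 126, 220 and 179 CPM in male Control 1, 3, 4 and 5. It was at 457, 385 and 407 CPM in IleR, and at 392, 299, 376 and 431 CPM in ValR. In LeuR 19 and 20 it was at 349 and 395 CPM and in LeuR 21 at 118 CPM, the lowest male value. The log2 fold change was 1.36 ± 0.32 in IleR (adjusted p = 0.0115) and 1.21 ± 0.30 in ValR (0.0106), with no overlap with Control. In LeuR it was 0.83 ± 0.32 (0.113), and it was 1.22 without LeuR 21 (adjusted p = 0.00449) and 0.53 without LeuR 20 (0.362).

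The intermediate filament genes Gfap and Vim are the usual signs of reactive astrocytes. Gfap was at 244, 508, 673 and 567.6 CPM in male Control, at 1146, 732 and 745 CPM in IleR, at 1085, 842 and 306 CPM in LeuR, and at 1065, 941, 383 and 647 CPM in ValR. The IleR libraries were all above Control, and the other diets overlapped with it. The log2 fold changes of 0.81 ± 0.43, 0.58 ± 0.43 and 0.61 ± 0.40 did not pass the test (adjusted p = 0.232, 0.421 and 0.312). In LeuR the value was 0.20 without LeuR 19 and 0.97 without LeuR 21, and in ValR it was 0.38 without Control 1, none of which passed. Vim was at 40.7, 73.3, 118 and 131 CPM in male Control 1, 3, 4 and 5, and at 193, 158, 145 and 182 CPM in ValR 7, 9, 10 and 12, all above Control. Its log2 fold change in ValR was 0.90 ± 0.30 (adjusted p = 0.0464), and the call was lost without Control 1, Control 3 or any 1 ValR library, with adjusted p up to 0.119, and with only Control and ValR in the fit (0.0658). Vim did not pass in IleR (0.74 ± 0.32, adjusted p = 0.141) or LeuR (0.21 ± 0.32, adjusted p = 0.718). In LeuR it was -0.031 without Control 1 and 0.47 without LeuR 21.

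Sox9, which directs the astrocyte lineage, was at 24.4 to 38.3 CPM in male Control and at 37.2 to 44.2 CPM in ValR, where it rose by 0.43 ± 0.12 on the log2 scale (adjusted p = 0.0173). Control 5 overlapped with ValR, and the call was lost without Control 1 or ValR 7 (adjusted p = 0.0512 and 0.0537). In IleR (36.5 to 40.2 CPM) and LeuR (35.6 to 37.9 CPM) the log2 fold changes were 0.36 ± 0.13 and 0.30 ± 0.13 (adjusted p = 0.0716 and 0.148). Without Control 5 they were 0.50 and 0.44 and passed, with adjusted p of 0.0101 and 0.0329, and DESeq2 called Sox9 in IleR (0.0485). Gja1, which encodes the gap junction protein connexin 43, had log2 fold changes of 0.39 ± 0.14, 0.18 ± 0.14 and 0.22 ± 0.13 in IleR, LeuR and ValR and did not pass (adjusted p = 0.0753, 0.450 and 0.244). Control 4, at 296 CPM, was above the other Control libraries (184 to 227 CPM), and without it Gja1 passed in all 3 diets with log2 fold changes of 0.55, 0.34 and 0.38 and adjusted p of 0.00302, 0.0447 and 0.0137. Without Control 1 they were 0.09 in LeuR and 0.14 in ValR (adjusted p = 0.751 and 0.521).

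The remaining members had no call in males. Slc1a3, the GLAST transporter, was at 456 to 607 CPM in Control, 469 to 719 CPM in IleR, 291 to 593 CPM in LeuR and 453 to 918 CPM in ValR, and its log2 fold changes of 0.05 ± 0.26, -0.27 ± 0.26 and 0.42 ± 0.24 differed in sign. With 1 library left out they ran from -0.17 (without IleR 17) to 0.16 in IleR, from -0.50 (without LeuR 21) to -0.037 (without LeuR 19) in LeuR, and from 0.28 to 0.59 in ValR, and none passed. Glul, whose enzyme turns the glutamate taken up into glutamine, was at 1427 to 1586 CPM in Control. It was at 1162 to 1290 CPM in IleR, below every Control library, with a log2 fold change of -0.32 ± 0.17 that did not pass (adjusted p = 0.222). Its value in LeuR, -0.17 ± 0.17, was -0.39 without LeuR 19 and 0.016 without LeuR 21, and its libraries (1024 to 1736 CPM) overlapped with Control. In ValR, at 1164 to 1645 CPM, it also overlapped with Control, and the log2 fold change was -0.20 ± 0.16 (adjusted p = 0.403), or -0.32 without ValR 9. Aldh1l1, a folate enzyme used as a general astrocyte marker, was the steadiest, at 58.6 to 71.9 CPM in Control and 62.1 to 81.5 CPM over the restricted diets. The 95% intervals of its log2 fold change, by a normal approximation, ran from -0.23 to 0.20 in IleR, -0.19 to 0.24 in LeuR and -0.08 to 0.31 in ValR.

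No member differed between 2 restricted diets in males: 0 of 10 passed for ValR against IleR, ValR against LeuR and IleR against LeuR, by edgeR with Benjamini-Hochberg adjustment. Over all genes 0%, 2.75% and 0% passed in these comparisons. At an unadjusted p under 0.05, 628, 5294 and 2512 genes passed. The smallest adjusted p among the members was 0.136, for Slc1a3 in ValR against LeuR, and limma voom also called 0 members. Counted without a test, 5 members had no overlap with Control in IleR, 1 in LeuR and 4 in ValR, beside 29.3%, 17.7% and 26.4% of all genes tested.

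**Figure D2:**
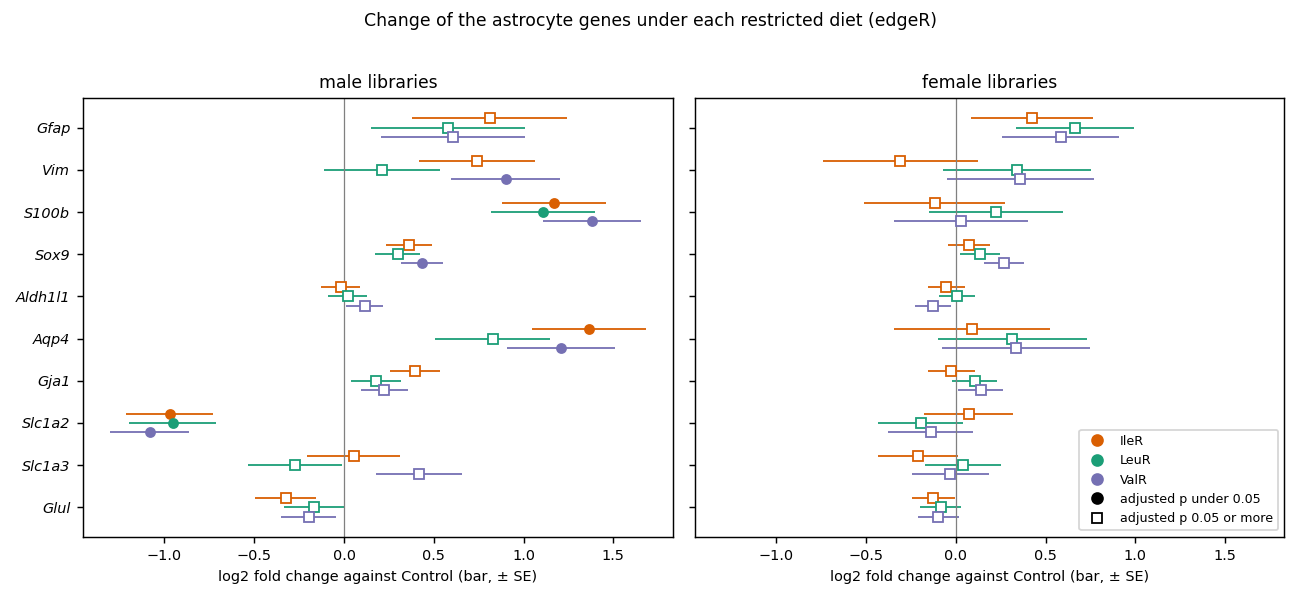
Log2 fold change against Control (x axis; bar, ± SE) of each astrocyte gene (y axis) in males and females, by diet, from edgeR; filled circles have an adjusted p under 0.05 and open squares do not. Filled circles appear in males only, for Slc1a2 and S100b in the 3 diets, Aqp4 in IleR and ValR, and Vim and Sox9 in ValR.

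In females, 0 of 10 members passed in any diet against Control by edgeR, and 0 by limma voom and by DESeq2. Of all 20344 genes tested, 0% passed in IleR, LeuR or ValR, and 577, 820 and 777 had an unadjusted p under 0.05. The restricted diets did not differ from each other either, with 0 of 10 members and 0% of genes passing in each of the 3 comparisons. Slc1a2 was at 994, 1994 and 2440 CPM (lowest, median and highest) in Control, at 1577, 2105 and 2512 CPM in IleR, at 776, 1774 and 2478 CPM in LeuR and at 1167, 1763 and 2245 CPM in ValR. Aqp4 was at 80.0, 128 and 288 CPM in Control, with medians of 145, 139 and 145 CPM in IleR, LeuR and ValR. S100b was at 72.0, 98.9 and 235 CPM in Control, with medians of 97.7, 102 and 90.6 CPM. Each restricted diet overlapped with Control for every member. Gfap had the largest log2 fold changes, 0.42 ± 0.34, 0.66 ± 0.33 and 0.59 ± 0.33, with adjusted p of 1.00, 0.968 and 1.00. Sox9 in ValR, at 0.27 ± 0.11, was the single member with an unadjusted edgeR p under 0.05 (0.0240, adjusted p = 1.00).

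The diet by sex interaction, in 1 edgeR fit of both sexes, was passed by 0 of 10 members in each diet, beside 0.0979% of 22465 genes in IleR, 0.00445% in LeuR and 4.25% in ValR. The smallest adjusted p was that of Slc1a2, where the male minus female log2 fold change was -0.95 ± 0.35 in ValR (adjusted p = 0.0955) and -1.03 ± 0.38 in IleR (0.149). For S100b in ValR it was 1.32 ± 0.54 (0.121). A call in males and none in females is thus not shown to be a difference between the sexes for these genes.

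The females, whose hindbrain scores overlapped between diets, allowed the relation of each member to regional content to be measured with diet in the model. Of the 10 genes, 9 had a slope on the score that passed in edgeR with Benjamini-Hochberg adjustment (7 higher and 2 lower with more hindbrain), beside 45.5% of all genes (21.8% higher, 23.7% lower). Aqp4 had the steepest slope, at 0.19 ± 0.02 log2 units per unit of score (adjusted p = 5.31e-09), followed by Vim (0.18 ± 0.02, 6.57e-08) and S100b (0.17 ± 0.01, 7.05e-09). Slc1a3 (0.09 ± 0.01, 1.33e-05), Gja1 (0.05 ± 0.01), Sox9 (0.03 ± 0.01) and Aldh1l1 (0.03 ± 0.01) also rose. Slc1a2 fell by 0.11 ± 0.01 per unit (5.80e-07) and Glul by 0.04 ± 0.01 (0.00317). Gfap, at 0.07 ± 0.03, did not pass (0.0691).

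The female library with the highest score, LeuR 45 (4.07), had the lowest Slc1a2, at 776 CPM, and the highest Aqp4, S100b and Vim, at 397, 276 and 180 CPM. At the other end, Control 25 (score -8.16) had 80.0 CPM of Aqp4. Within Control alone, the library with the most hindbrain, Control 30 (score -0.09), had 994 CPM of Slc1a2, 235 CPM of S100b and 288 CPM of Aqp4. Its Slc1a2 lay below the male restricted range. Its S100b and Aqp4 lay below every restricted male except LeuR 21, and above every male Control library, with the caveat that the sexes were scaled in separate tables.

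**Figure D3:**
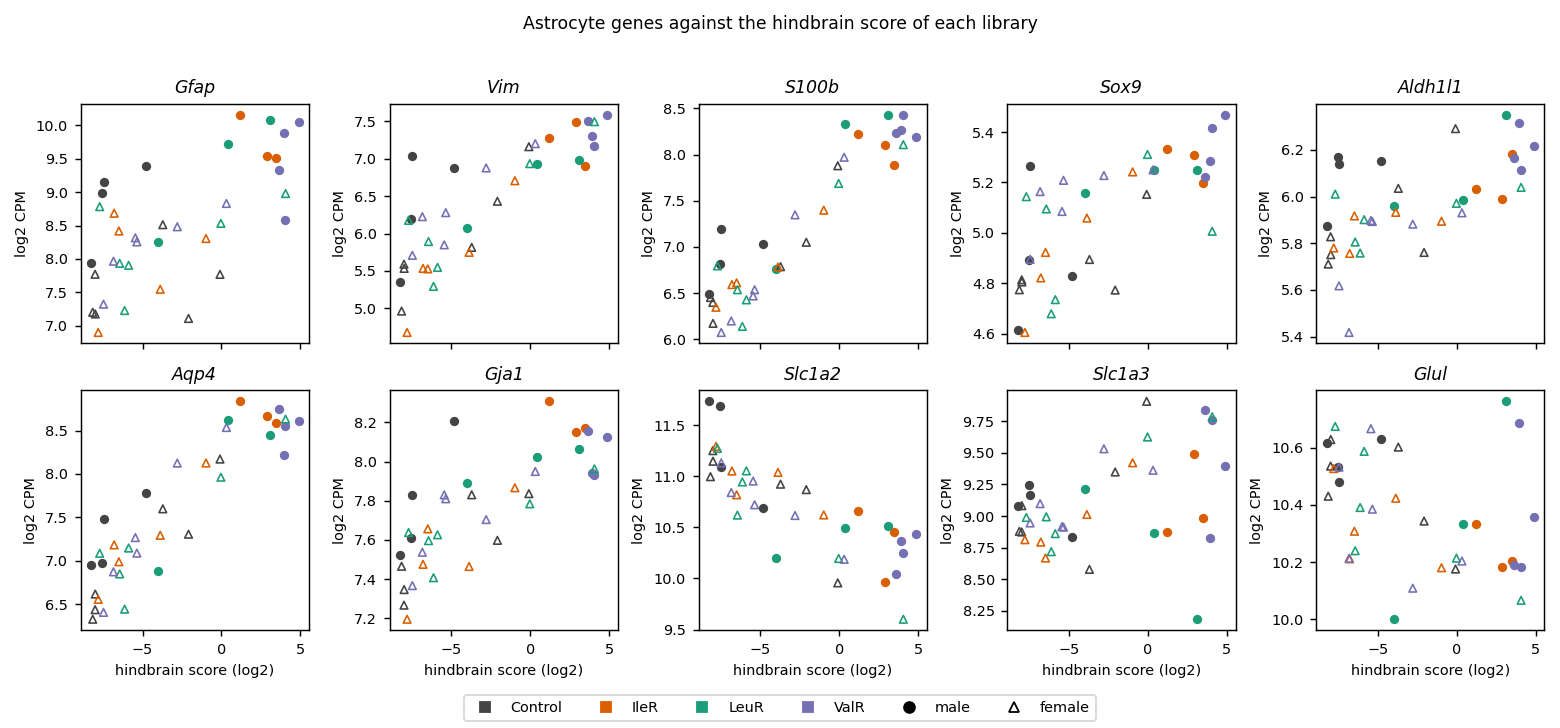
Log2 CPM of each astrocyte gene (y axis) against the hindbrain score of each library (x axis, log2 units), males filled and females open, coloured by diet. Aqp4, S100b and Vim climb with the score in females with slopes of 0.19, 0.17 and 0.18, Slc1a2 falls with a slope of -0.11, and male Control sits apart from the restricted males along the x axis.

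In males, 0 of 10 members had a slope that passed with diet in the model, beside 0.942% of all genes. With limma voom 0 members also passed. The male slope of Aqp4 was 0.20 ± 0.05 (adjusted p = 0.0998) and that of S100b 0.18 ± 0.05 (0.120), close in size to the female slopes, whereas that of Slc1a2 was -0.03 ± 0.05 (0.872). Slc1a3, at -0.11 ± 0.05 (0.291), and Glul, at 0.07 ± 0.03 (0.259), had male slopes of the opposite sign to their female ones. Whether slopes differed between the sexes was not tested. At an unadjusted p under 0.05, 3590 genes had a male slope. With the score as a covariate in the male fit, 0 of 10 members passed in IleR, LeuR or ValR, and the share of all genes that passed there was not taken. The SE then grew: Aqp4 in ValR was -0.99 ± 0.63, S100b in ValR -0.59 ± 0.60 and Vim in ValR -0.66 ± 0.75, each with the opposite sign to the fit without the score. Slc1a2 kept its sign in this fit, at -0.71 ± 0.59 in IleR, -0.75 ± 0.49 in LeuR and -0.77 ± 0.67 in ValR, and so did Sox9 in ValR, at 0.32 ± 0.34. With the cerebellum and brainstem scores as 2 covariates, Slc1a2 was at 0.017 ± 0.51, -0.50 ± 0.38 and -0.13 ± 0.56. A fit of both sexes, added after the data were seen, held 1 slope on the score shared by the sexes. There the SEs were smaller and the male contrast of Slc1a2 was 0.011 ± 0.26 in IleR, -0.16 ± 0.24 in LeuR and 0.057 ± 0.27 in ValR. The shared slope draws on the female libraries, so these are not estimates from males alone. In that fit 0 members passed in IleR and ValR, and 1 passed in LeuR, Vim at -0.99 ± 0.30 (adjusted p = 0.0363). The share of all genes passing in it was not taken either.

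As a description, each female slope was multiplied by the male difference in mean score from Control (9.54 in IleR, 6.85 in LeuR and 11.1 in ValR). The product had the sign of the male log2 fold change for 9 of 10 members in IleR (not Aldh1l1), 9 in LeuR (not Slc1a3) and 10 in ValR. The share of all genes with such a match was not taken, so these counts are not shown to be particular to the members. For Slc1a2 the products were -1.06, -0.76 and -1.24, beside male changes of -0.97, -0.95 and -1.08. For S100b they were 1.63, 1.17 and 1.91 beside 1.17, 1.11 and 1.38, and for Aqp4 1.84, 1.32 and 2.14 beside 1.36, 0.83 and 1.21. Vim had the widest gap, its male change being 1.00, 1.04 and 1.13 below the product. The part of regional content in the male changes was not tested beyond these fits.

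**Figure D4:**
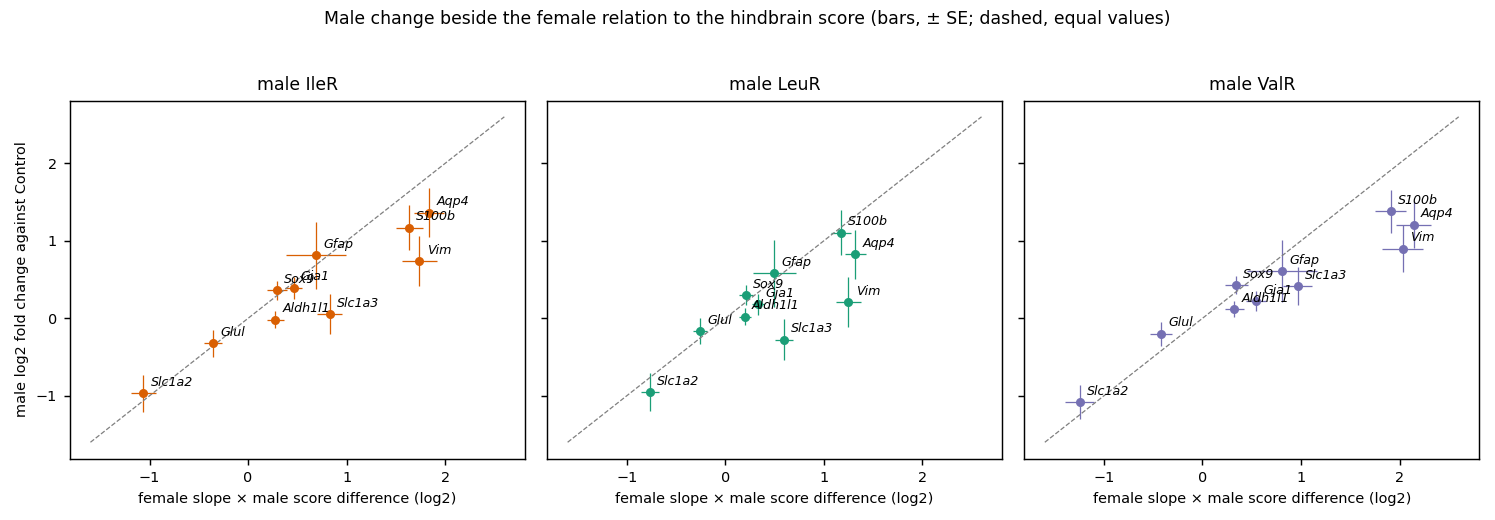
Male log2 fold change against Control (y axis; bar, ± SE) beside the female slope on the hindbrain score times the male difference in score (x axis, log2; bar, ± SE of the slope times that difference) for the 10 genes, 1 panel per diet, with a dashed line of equal values. Slc1a2 and Glul lie near the line, and Vim, Aqp4 and Slc1a3 lie below it.

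The balance of both glutamate transporters was taken within each library, as log2 CPM of Slc1a3 minus log2 CPM of Slc1a2. It is not scaled to gene length and was compared between libraries alone. In males it was -2.66, -2.44, -1.85 and -1.92 in Control 1, 3, 4 and 5. It was -1.79, -1.47 and -0.48 in IleR, -2.33, -1.63 and -0.99 in LeuR, and -1.05, -1.54, -0.49 and -0.20 in ValR. The IleR and ValR libraries were all above Control, and LeuR 19 lay within it. The difference from Control was 1.02 over the restricted diets together (exact permutation p = 0.0140, two-sided, 10 against 4). By diet it was 1.40 in ValR (exact permutation p = 0.0286, 4 against 4, the smallest possible), 0.97 in IleR (p = 0.0571, exact permutation, the smallest possible with 3 against 4) and 0.57 in LeuR (exact permutation p = 0.229).

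Female balances ran from -2.48 to 0.18, and LeuR 45 had the highest value of either sex. Control 30 was next, at -0.050. The difference between restricted diets and Control was 0.07 (exact permutation p = 0.895, 17 against 6), and by diet it was -0.28 in IleR, 0.29 in LeuR and 0.13 in ValR (exact permutation p = 0.662, 0.621 and 0.784).

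**Figure D5:**
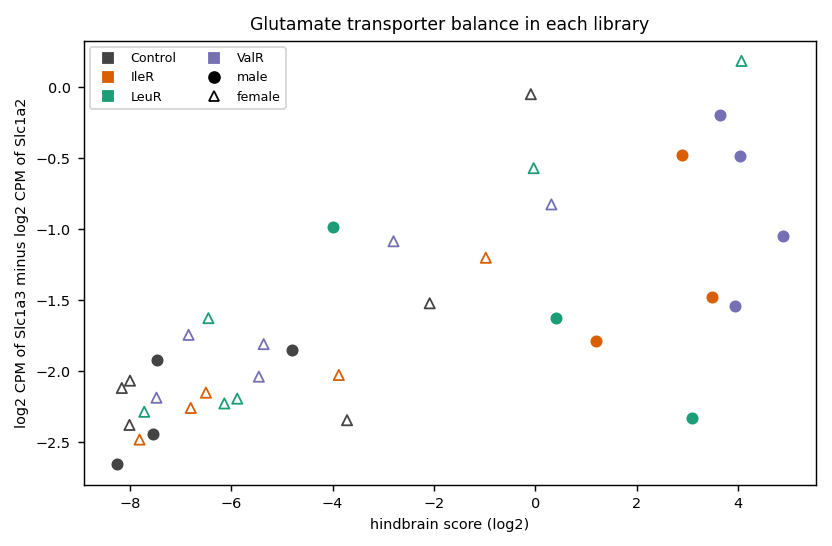
Log2 CPM of Slc1a3 minus log2 CPM of Slc1a2 (y axis) against the hindbrain score (x axis, log2 units) in each library, males filled and females open, coloured by diet. Male Control lies between -2.66 and -1.85 at low scores, and the libraries of score above 0 spread from -2.33 (male LeuR 19) to 0.18 (female LeuR 45).

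Other astrocyte genes moved in both directions in males. Of a list of 28 further astrocyte genes, 6 rose and 2 fell in IleR, 7 rose and 2 fell in LeuR, and 11 rose and 5 fell in ValR (edgeR, adjusted over all genes), with median log2 fold changes of 0.26, 0.32 and 0.31. Of all genes tested, 6.63% rose and 8.68% fell in IleR, 3.81% rose and 6.33% fell in LeuR, and 11.1% rose and 12.4% fell in ValR. The sodium bicarbonate transporter gene Slc4a4 rose most in IleR (1.21 ± 0.18) and ValR (1.35 ± 0.17), and with it the sodium pump subunit gene Atp1b2 (0.90 ± 0.19 and 1.06 ± 0.18). In LeuR the potassium channel gene Kcnj10 (0.99 ± 0.24) and the amino acid transporter gene Slc7a10 (0.94 ± 0.19) rose most. Chrdl1, a secreted antagonist of BMP signalling, fell by 2.23, 2.50 and 1.60 on the log2 scale in IleR, LeuR and ValR, and Dio2, the enzyme that activates thyroid hormone, by 2.10, 2.13 and 1.83. In females 0 of 28 passed in any diet, while 17 had a positive and 5 a negative slope on the score, beside 21.8% and 23.7% of all genes.

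Lists of genes that separate astrocytes by region are given next. Of 6 Bergmann glia genes, 4 rose in IleR, 1 in LeuR and 5 in ValR, and none fell, beside 6.63%, 3.81% and 11.1% of all genes that rose. Gdf10, a growth factor of Bergmann glia, was at most 11.0 CPM in male Control and 46.2 to 106 CPM in ValR, a log2 fold change of 3.46 ± 0.56 (adjusted p = 0.000749). Timp4, a metalloproteinase inhibitor, rose by 2.07 ± 0.21 in ValR, 1.65 ± 0.22 in IleR and 1.06 ± 0.22 in LeuR. Of the pair of telencephalic astrocyte genes, the transcription factor gene Lhx2 fell by 3.04 ± 0.69, 2.38 ± 0.67 and 4.49 ± 0.68 on the log2 scale in IleR, LeuR and ValR, and Mfge8, a secreted phagocytosis factor, by 2.00 ± 0.28 in ValR. Mfge8 also passed in IleR (adjusted p = 0.00574) and not in LeuR (0.0617). Of all genes, 8.68%, 6.33% and 12.4% fell in IleR, LeuR and ValR. Lhx2 and Mfge8 also passed the diet by sex interaction in ValR, beside 4.25% of all genes, at -4.60 ± 0.85 for Lhx2 (adjusted p = 0.00785) and -1.97 ± 0.39 for Mfge8 (0.00803). Lhx2 is also made by forebrain neurons. Of 3 non-telencephalic genes, the glycine transporter gene Slc6a9 rose in the 3 diets (1.27, 1.31 and 1.28), and Agt and the GABA transporter gene Slc6a11 did not pass. In each diet the largest log2 fold change of the list was nonetheless that of an uncalled gene, at 2.01, 2.17 and 1.99. The smallest was 0.63, 1.03 and 0.11, also of an uncalled gene. In females none of the genes of these lists passed in any diet. With diet in the model, the 6 Bergmann glia genes, Slc6a9 and Agt had positive slopes on the score that passed, and Lhx2 and Mfge8 negative ones, beside 21.8% positive and 23.7% negative over all genes.

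Of 34 reactive astrocyte genes, 1 rose and 2 fell in IleR, 0 rose and 1 fell in LeuR, and 3 rose and 3 fell in ValR, and in females 0 of 33 passed in any diet. Of all genes tested in males, 15.3% passed in IleR, 10.1% in LeuR and 23.5% in ValR in either direction. The median log2 fold change of the list was 0.23, 0.49 and 0.23. B3gnt5, a glycosyltransferase gene, rose by 3.61 ± 0.78 in IleR and 4.31 ± 0.77 in ValR, from 0.651 to 0.838 CPM in Control. Ptgs2, the inducible cyclooxygenase that forebrain neurons also make, fell by 2.72, 2.47 and 3.23 on the log2 scale in the 3 diets. In ValR, Fbln5 rose by 1.65 ± 0.56 and Cxcl10 fell by 1.36 ± 0.41, while H2-T23 fell by 0.98 ± 0.25 in IleR and by 0.93 ± 0.23 in ValR. B3gnt5 had a female slope on the score of 0.52 ± 0.04 and Ptgs2 one of -0.28 ± 0.05, and both passed.

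Markers of other cell types gave these values beside the male changes. The summed level of 9 oligodendrocyte genes was 4743 to 9920 CPM in Control and 6658 to 18515 CPM in the restricted diets, and 0 of 9 passed in any diet. That of 6 microglia genes was 315 to 357 CPM in Control and 204 to 366 CPM in the restricted diets, with 2 lower in IleR, 0 passing in LeuR and 4 lower in ValR. Of all genes tested, 8.68%, 6.33% and 12.4% were lower in these diets, and 15.3%, 10.1% and 23.5% passed in either direction. Of 6 neuron genes, 1 was higher and 1 lower in each diet. The 7 endothelial, 5 ependymal, 5 choroid plexus, 4 meningeal and 5 blood genes had no call in any male comparison with Control. The blood genes still had log2 fold changes of 1.89 to 1.97 in LeuR (smallest edgeR adjusted p = 0.0822). The summed choroid plexus genes ran from 13.2 to 2966 CPM within male Control. Of 4 oligodendrocyte precursor genes, 1 was higher in LeuR and 2 were lower in ValR. Vim is shared with several of these cells, and their part in its change was not tested.

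The genes most like each of 5 members were taken by Pearson's r of log2 CPM over the 23 female libraries among 13886 genes, as a description without a test. The libraries share the regional gradient above. Aqp4 was most like Fgfr1 (r = 0.967, and 0.850 over the 14 male libraries), Aldh1a1 (0.964, male 0.968) and Atp1b2 (0.960, male 0.918). Slc1a2 was most like the immediate early genes Egr1 (0.972, male 0.861) and Egr4 (0.961, male 0.797) and the synaptic exchange factor gene Kalrn (0.959, male 0.869). Slc1a3 was most like Btg1, Slc25a29 and Setd1b (0.959, 0.954 and 0.949), with lower male values for the first pair (0.583 and 0.476) than for Setd1b (0.847). Vim was most like Cald1, Plxnb2 and Mdc1 (0.963, 0.957 and 0.949; male 0.769, 0.885 and 0.430). Gfap was most like AU020206, Cnn3 and Myo6 (0.924, 0.899 and 0.883; male 0.858, 0.888 and 0.746).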

How the data were processed

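RNA-seq was analysed for 14 male and 23 female libraries from 3xTg mouse brain. The authors aligned reads to GRCm38.p5 and deposited expected counts per Ensembl gene in 2 tables, 1 per sex, without normalization. The aligner is not given in the sources used here, and neither is whether counting used strand. The submitters' processing notes name R, edgeR and limma. The other deposited tables hold the authors' own comparisons and were not used. Labels and methods differ on polyA or total RNA, and the extraction text names liver. The methods state that outliers in a principal component analysis were removed, and 10 of 24 male libraries in the labels are not analysed here.

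After rounding to whole numbers, the expected counts were fitted with edgeR 4.0.16 (R 4.3.3). A gene was kept when every library of some diet group had 1 count or more. Scaling was by TMM, and 1 quasi-likelihood model per sex covered the 4 diets. P-values were adjusted by Benjamini-Hochberg over all genes tested, with a threshold of 0.05. CPM is after TMM, and log2 CPM used a prior count of 2. Intervals are 95%. Alternatives were limma 3.58.1 (voom), DESeq2 1.42.0, other size factors and filters, fits of 2 groups, score covariates and leaving out each library. The fits were tested on simulated data. Exact permutation tests used scipy 1.17.1. Exon lengths and positions came from GENCODE M21.

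The members, the marker lists and the tests were chosen with earlier results of these data known. All 10 members are named. Of the other astrocyte lists, the named genes are the 2 largest rises and 2 largest falls per list and male comparison among those past the threshold, and any gene of a list of at most 6. The most alike genes are the first 3 by Pearson's r among genes of mean log2 CPM 1 or above. Depth was 12682687 to 25722333 counts in males and 10672599 to 21370973 in females.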

Additional observations from a re-analysis of the deposited data

Results flagged for a closer look

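In 5 of 72 groups of 4 to 6 libraries, 1 library stood apart from the others by more than Dixon's 95% critical value, where chance gives about 1 in 20. In male Control, Aldh1l1 was at 58.6 CPM in library 1 and at 70.5 to 71.9 CPM in the others. In female Control, Gfap was at 365 CPM in library 27 and at 138 to 218 CPM in the others. The other 3 values belong to female Control 30, which had the highest hindbrain score of its group, -0.09. It had 235 CPM of S100b against 72.0 to 132 CPM in the other 5 libraries, 35.5 CPM of Sox9 against 27.2 to 29.6 CPM, and a balance of Slc1a3 over Slc1a2 of -0.050 against -2.38 to -1.52.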

How the results depend on the processing

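The counts of members called in males (3 in IleR, 2 in LeuR and 5 in ValR) were the same with DESeq2 size factors, without the filter and with filterByExpr. In LeuR the count was 1 with limma voom, where S100b was lost, and 0 with only the 2 groups compared. That fit of 2 groups called 2 members in IleR, where Slc1a2 was lost (adjusted p = 0.0533), and 4 in ValR, where Vim was lost (0.0658). With the hindbrain score as a covariate, or the cerebellum and brainstem scores, the count was 0 in IleR, LeuR and ValR. The share of all genes that passed was not taken for any fit with a score. In 1 fit of both sexes with a shared slope on the score, an alternative chosen after the data were seen, the count was 0, 1 and 0. With the hindbrain score, the called log2 fold changes that reversed were Aqp4 (IleR -0.49, ValR -0.99), S100b (-0.50, -0.24 and -0.59 in IleR, LeuR and ValR) and Vim (ValR -0.66). Slc1a2 (-0.71, -0.75 and -0.77) and Sox9 in ValR (0.32) kept their sign there with calls lost. With both regional scores they were Aqp4 (-0.85 and -1.31), Slc1a2 (IleR, 0.017), S100b (-0.58, -0.27 and -0.66) and Vim (-0.97). In the fit of both sexes they were Aqp4 (-0.42 and -0.93), Slc1a2 (0.011 in IleR and 0.057 in ValR), S100b (-0.44, -0.17 and -0.54) and Vim (-1.05 in ValR, and -0.99 in LeuR, where it was newly called). Sign changes of values that passed under neither setting are not counted here.

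With 1 library left out, the count ranged from 1 to 4 in IleR, 0 to 3 in LeuR and 3 to 6 in ValR. It fell to 1 in IleR without Control 1 or IleR 17, to 0 in LeuR without Control 1, Control 3, LeuR 19 or LeuR 20, and to 3 in ValR without Control 1 or ValR 7. The count of members with a slope ranged from 8 to 10 in females and from 0 to 1 in males, the 1 being without LeuR 20. The male balance difference ranged from 0.88 to 1.15 over the restricted diets (exact permutation p at most 0.0490), 0.59 to 1.24 in IleR, 0.24 to 0.91 in LeuR and 1.19 to 1.64 in ValR, where the smaller groups cannot go below p = 0.0571. In females it ranged from -0.06 to 0.41 over the restricted diets, -0.48 to 0.06 in IleR, -0.03 to 0.63 in LeuR and -0.03 to 0.47 in ValR. The male score difference ranged from 8.96 to 10.1 and the female one from -0.08 to 1.54. The counts of members called in females against Control stayed at 0 under every alternative run, and those between restricted diets and for the interaction stayed at 0 with limma voom and with the hindbrain score. DESeq2 called 4, 2 and 5 members in males. The female slope was called for 10 members with limma voom. It was called for 9 with either the cerebellum or the brainstem list in the score, each minus the same forebrain list. The prior count of 0.5 changed no call of the balance, but it could hardly do so, since both transporter genes had at least 5321 counts in every library. It was not run on the hindbrain score. No paired analysis was possible because library numbers are unique and link no libraries across diets.

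With 3 or 4 male libraries per diet, and with diet and score nearly separated in males, the male covariate fits have wide errors, and a missing call there does not show that diet had no effect. Depth did not limit the members, since each had at least 329 counts in every library.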
